A study of Mus musculus with 8 samples.

Results

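The respiratory chain subunits encoded in the nucleus were followed in naive T cells of wild-type mice and of mice lacking Trappc1 in T cells. Members were chosen by symbol: all symbols that begin with Ndufa, Ndufb, Ndufc, Ndufs, Ndufv, Uqcr, Cox4 to Cox8 or Atp5, together with Sdha, Sdhb, Sdhc, Sdhd and Cyc1, leaving out the Ndufaf assembly factors and symbols ending in -ps. This gave 87 of the 23337 symbols listed: 38 of complex I, 4 of complex II, 9 of complex III, 18 of complex IV, 15 of complex V and 3 that carry such a symbol but name no subunit. Those 3 were Cox4nb, an older symbol of an endoplasmic reticulum membrane complex subunit (Emc8), Atp5s and Atp5sl, older symbols of assembly-related proteins (Dmac2l and Dmac2). By symbol, Ndufa4 was counted in complex I, although its protein is known as a complex IV subunit. Of the 87 members, 81 had a mean of at least 1 TPM (the usual length-corrected share of all transcripts) and were tested, 78 of them subunits.

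The cells were naive CD4+ or CD8+ T cells, sorted as CD62L+ and CD44low from mLNs and spleens of mice aged 4 weeks. Each of the 2 cell types was sequenced in 2 WT (wild-type) and 2 KO libraries, 4 groups in all, where KO is a CD4-cre Trappc1 cKO, a conditional knockout in which Cre is driven from Cd4 regulatory sequence and so acts in developing T cells of both lineages. The labels do not state whether the WT mice carried CD4-cre or whether both libraries of a group came from separate mice, so each p-value is set against a spread between libraries that may be technical only. The Trappc1 protein belongs to the core of TRAPP, which serves vesicle transport.

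Complexes I to IV pass electrons from NADH and succinate to oxygen, and all of them but complex II move protons across the inner mitochondrial membrane. Complex V, the ATP synthase, uses the proton gradient to make ATP. Each complex other than complex II is built from nuclear-encoded subunits together with a part encoded in mitochondrial DNA, and no mitochondrially encoded gene was listed. Naive T cells are quiescent and are known to draw most of their ATP from oxidative phosphorylation.

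RefSeq promoter windows (GRCm38.p6) reaching from 250 bases before to 50 bases after a gene start were found by symbol for 67 of the 87 members, in 72 windows. Motifs were searched on both strands. The NRF1 core GCGCATG was in 13 of the 72 member windows (18.1%), in 3.91% of all 32851 windows and in 6.97% of the windows of genes tested. The YY1 core ATGGCGG was in 11 (15.3%, against 4.05% of all windows and 8.07% of those of genes tested), of which 9 were among the 35 windows of complex I and none among the 13 of complex IV. The ETS and GABP core CCGGAAG was in 22.2% of member windows (8.86% of all and 18.1% of tested genes), the SP box GGGCGGG in 31.9% (25.6% and 45.1%) and CCAAT in 41.7% (37.4% and 38.3%). These shares cover whole windows, with any annotated exon and the 50 bases after the start. In the longest exon-free stretch before the start, no member window held the YY1 core. The NRF1 and ETS cores were in fewer of those stretches than of the whole windows. These matches are descriptions of letters and not of bound sites. The stretches below show 4 members that the results turn on: Atp5b and Atp5c1, subunits of the same ATP synthase head whose levels lay in opposite directions in CD4 KO, Ndufs8, which had the lowest p for a difference between the KO effects, and Ndufa6, among the 3 largest differences in CD8 KO. Each runs 5′ to 3′ on the strand of the gene, within the 250 bases before the start and outside any exon annotated in GENCODE M21, and capitals mark matches to the 5 motifs on either strand.
Atp5b: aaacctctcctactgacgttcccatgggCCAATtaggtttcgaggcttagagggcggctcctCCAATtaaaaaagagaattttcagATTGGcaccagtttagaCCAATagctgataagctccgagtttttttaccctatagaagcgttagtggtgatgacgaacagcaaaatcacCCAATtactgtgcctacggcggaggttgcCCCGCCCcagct
Atp5c1: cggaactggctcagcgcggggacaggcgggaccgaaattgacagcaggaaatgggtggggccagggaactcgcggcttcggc
Ndufs8: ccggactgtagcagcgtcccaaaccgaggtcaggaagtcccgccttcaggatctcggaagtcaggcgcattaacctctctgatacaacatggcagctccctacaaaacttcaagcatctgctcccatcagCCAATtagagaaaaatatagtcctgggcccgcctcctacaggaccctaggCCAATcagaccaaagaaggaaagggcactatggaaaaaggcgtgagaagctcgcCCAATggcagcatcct
Ndufa6: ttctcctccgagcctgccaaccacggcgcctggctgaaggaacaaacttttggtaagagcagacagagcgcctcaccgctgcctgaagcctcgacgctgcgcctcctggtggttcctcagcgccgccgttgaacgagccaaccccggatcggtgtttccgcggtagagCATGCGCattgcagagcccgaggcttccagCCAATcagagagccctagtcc
The Atp5b stretch (chr10:128083057-128083272, + strand) held 5 matches to CCAAT and 1 to the SP box. At least 5 CCAAT matches were present in 0.271% of all windows, in 0.566% of the windows of genes tested and in 2 of the 72 member windows. The Atp5c1 stretch (chr2:10080511-10080592, - strand), 82 bases long, held none of the 5 motifs. Ndufs8 (chr19:3912775-3913024, - strand) held 3 CCAAT matches, and Ndufa6 (chr15:82354323-82354541, - strand) held 1 NRF1 core and 1 CCAAT.

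Each library had 3.03 to 4.01 gigabases aligned. TPM keeps no counts, so no counting interval can be given, and a value of 0 is reported only as listed. CD8 WT replicate 2 differed from the other 7 libraries: summed erythroid markers were 93673 TPM there and 2266 TPM in CD8 WT replicate 1, against 19.0 to 394 TPM in CD4 and CD8 KO libraries, and summed neutrophil and macrophage markers were 31231 TPM against 701 TPM. All 23 neutrophil and macrophage markers were higher in replicate 2 than in replicate 1 of CD8 WT, as were 11 of 13 erythroid and 13 of 15 B cell and MHC class II markers and 0 of 9 T cell markers. Summed T cell markers ran from 7866 to 9027 TPM in CD4 WT and from 6350 to 6869 TPM in CD4 KO. For CD8 they were 3733 and 9051 TPM (WT) and 8394 to 9232 TPM (KO). In CD4, neutrophil and macrophage markers summed to 105 to 286 TPM in WT and 1415 to 2317 TPM in KO, and B cell and MHC class II markers to 11877 to 15982 TPM in WT and 6883 to 7363 TPM in KO. In CD8 the B cell and MHC class II sums ran from 2102 to 26446 TPM in WT and from 2128 to 2776 TPM in KO. No marker of these lists was at 0 in all libraries, and the part of these cells in the results was not tested. The main CD8 counts, medians and sums are given with and without CD8 WT replicate 2, while counts by unadjusted p and with the span trend removed use both CD8 WT libraries. In bulk RNA, fewer cells of a type and less RNA per cell cannot be told apart. Trappc1 itself was lower in CD4 KO (30.5 and 32.8 TPM) than in CD4 WT (78.7 and 55.0 TPM), with no overlap (log2 difference -1.03 ± 0.40, limma adjusted p 0.235). The CD8 groups overlapped, with 56.9 and 45.6 TPM in KO and 81.2 and 40.3 TPM in WT. Which part of Trappc1 is deleted was not stated, so its RNA level is a partial check of the labels at most.

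Respiratory chain transcripts were abundant in all groups. The 87 members together made up 11901 and 11299 TPM in CD4 WT against 13235 and 12239 TPM in CD4 KO. For CD8 the sums were 12106 and 7204 TPM (WT) and 12512 and 13713 TPM (KO). These are 0.720% to 1.37% of all transcripts. Both CD4 KO libraries lay above both CD4 WT libraries, and CD8 WT replicate 2 was the lowest of the 8. Divided by the summed T cell markers, the member sums were 1.32 and 1.44 in CD4 WT and 2.08 and 1.78 in CD4 KO. The CD8 ratios were 1.34 and 1.93 (WT) and 1.36 and 1.63 (KO), so they overlapped and were highest in CD8 WT replicate 2. Leaving out the 3 most abundant genes, the CD4 sums were 7994 and 7399 TPM (WT) and 8011 and 7134 TPM (KO), and overlapped. The median of the 81 members tested was 72.7 TPM, against 20.9 TPM for all 11786 genes tested. A mean of at least 100 TPM was reached by 28 members, 38 lay between 10 and 100 TPM, 15 tested members lay below 10 TPM and 6 lay below 1 TPM.

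Levels differed widely between subunits of the same complex, though these are thought to be assembled in fixed proportions. The 3 most abundant genes were Atp5b, the catalytic beta subunit of ATP synthase (mean 1697 TPM over 8 libraries), Cox7a2l, a factor that joins complexes into supercomplexes (1562 TPM), and Uqcrc1, a core protein of complex III (994 TPM). They took 36.1% of the summed TPM of all members. In complex I the highest were Ndufs3 (360.1 TPM) and Ndufa9 (195 TPM), while the lowest tested was at 1.25 TPM. In complex II, Sdha, the flavoprotein that oxidises succinate, was at 552 TPM, the membrane anchor Sdhd at 451 TPM, the iron-sulfur subunit Sdhb at 109 TPM and the anchor Sdhc at 82.4 TPM. Cyc1, the cytochrome c1 of complex III, was at 348 TPM and Uqcrc2 at 94.5 TPM. In complex IV, Cox6a1 (238 TPM) and Cox4i1 (182 TPM) followed Cox7a2l. In complex V, Atp5a1, the alpha subunit, was at 458 TPM and Atp5c1, the gamma subunit that forms the rotating stalk, at 363 TPM.

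Levels also ran with transcript length. Tested members with an annotated transcript under 600 nucleotides had a median of 18.6 TPM (28 genes), those of 600 to 1000 nucleotides 82.3 TPM (23 genes), those of 1000 to 2000 nucleotides 138 TPM (22 genes) and longer ones 55.1 TPM (8 genes). The medians of other genes in the same length classes were 15.3, 27.9, 31.6 and 20.8 TPM. Across the 81 members the Spearman correlation of length with mean TPM was 0.37, which describes genes within the same libraries and not independent replicates. The small subunits Cox7c (540 nucleotides, 5.03 TPM), Cox6b1 (486 nucleotides, 12.3 TPM) and Uqcrh (7.75 TPM) were listed far below larger subunits of their own complexes, while Cox6a1 (571 nucleotides, 238 TPM), Cox8a (550 nucleotides, 126 TPM) and Ndufa6 (382 nucleotides, 91.9 TPM) are as short and were listed high. Whether the library preparation bears on short transcripts was not tested. For 9 members a pseudogene transcript matched at least 50% of the transcript at 95% identity or more (Atp5g2, Atp5h, Atp5k, Atp5l, Ndufb11, Ndufs3, Ndufs5, Ndufs6 and Uqcrb), so reads may be split between copies and these levels are uncertain.

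In the isoform pairs that follow, the common form was the one listed with high values. Cox4i1 had 118 to 249 TPM per library and Cox4i2, a form known from lung, at most 1.64 TPM. Cox6a1 had 192 to 342 TPM and Cox6a2, a heart and muscle form, at most 1.88 TPM. Cox8a had 71.7 to 206 TPM, while Cox8b and Cox8c were listed above 0 in a single library each. Cox7a2 had 39.6 to 81.9 TPM and the muscle form Cox7a1 at most 0.294 TPM. Ndufa4 had 17.0 to 62.3 TPM and Ndufa4l2, known as hypoxia-responsive, was listed above 0 only in CD8 WT replicate 2, at 2.24 TPM. These 6 low forms were the members left untested. Cox6b2, the testis form beside the low Cox6b1, and Cox7b2 reached a mean of 1 TPM and were tested. The 3 genes for the c ring of ATP synthase, which encode the same mature protein, were all present, Atp5g3 at 127 TPM, Atp5g2 at 104 TPM and Atp5g1 at 75.7 TPM.

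**Figure D1:**
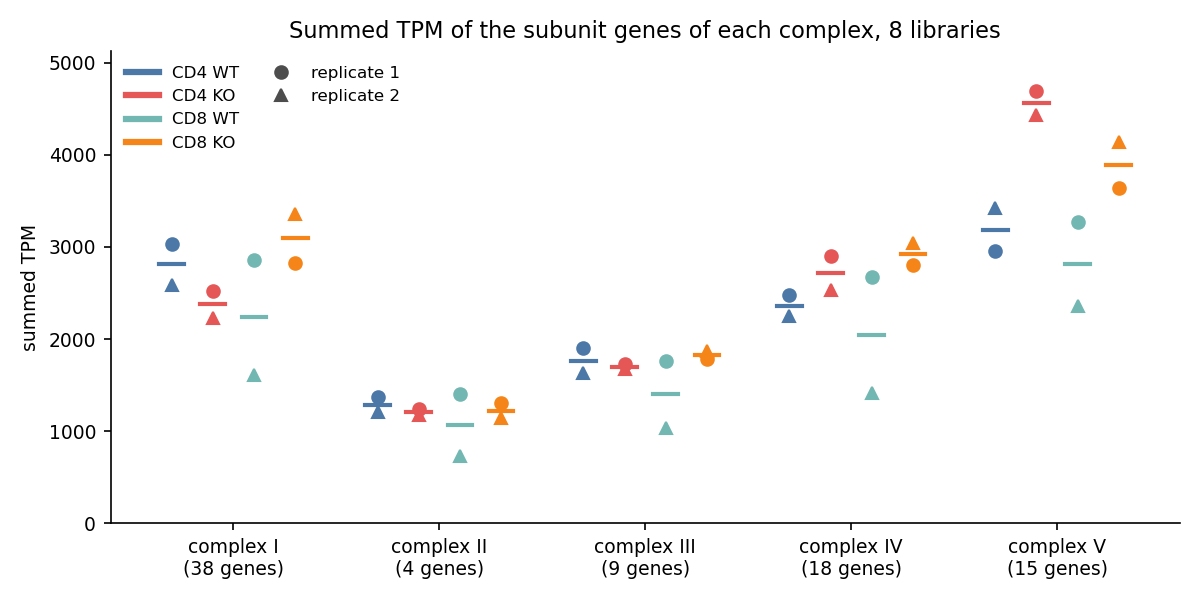
Summed TPM of the subunit genes of each complex (y axis, linear from 0) in the 8 libraries; points are libraries, bars are the means of 2. Complex V lay at 4689 and 4432 TPM in CD4 KO against 2951 and 3420.5 TPM in CD4 WT, and CD8 WT replicate 2 is the lowest library in every complex.

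In CD4 cells the complexes did not differ in the same direction between KO and WT. Summed complex V was 2951 and 3420.5 TPM in CD4 WT and 4689 and 4432 TPM in CD4 KO, a ratio of means of 1.43. Complex IV was 2480.1 and 2248 TPM in WT and 2905 and 2535 TPM in KO, a ratio of 1.15. Complex I was 3036 and 2584 TPM in WT and 2526 and 2232 TPM in KO, a ratio of 0.846. Complexes II and III had ratios of 0.935 and 0.961. Both KO libraries lay above both WT libraries for complexes IV and V and below both for complex I. Most of the excess in complex V was Atp5b: without it the ratio was 1.07. Complex IV without Cox7a2l was 851 and 866 TPM in WT and 1146 and 862 TPM in KO, and overlapped. With median-of-ratios scaling, which moved the median of all genes from -0.16 to 0.03 on the log2 scale, the CD4 ratios were 0.986, 1.09, 1.12, 1.34 and 1.67 for complexes I to V, so the order of complexes I, IV and V was the same and the lower level of complex I was not.

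No member passed limma's test in CD4 KO against CD4 WT (adjusted p under 0.05 over all 11786 genes), where 84 genes, 0.713% of those tested, did. At an unadjusted p under 0.05 there were 8 of 81 members, against 16.7% of all genes. Of these 3 were higher (5.03% of all genes) and 5 lower (11.7%). Of the members, 42 of 81 had a log2 difference above 0 (41.7% of all genes), and the median was 0.04 against -0.16 for all genes. By complex the medians were -0.18 for I, -0.27 for II, 0.14 for III, 0.30 for IV and 0.20 for V. That of complex I was close to the median of all genes. The KO libraries lay wholly above the WT libraries for 22 members (21.7% of all genes) and wholly below for 20 (36.5% of all genes). Of the 37 tested complex I genes, 14 were wholly lower (37.8%, near the 36.5% of all genes) and 6 wholly higher (16.2%, against 21.7%). Of the 28 in complexes IV and V, 13 were wholly higher (6 of 13 and 7 of 15) and 2 wholly lower. After median-of-ratios scaling the wholly higher members numbered 34 (29.6% of all genes) and the wholly lower 13 (28.0%), and in complex I the counts were 11 higher and 10 lower, with 22 of 37 differences above 0 where 12 were before. Over all members 57 of 81 were then above 0, against 51.0% of all genes.

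**Figure D2:**
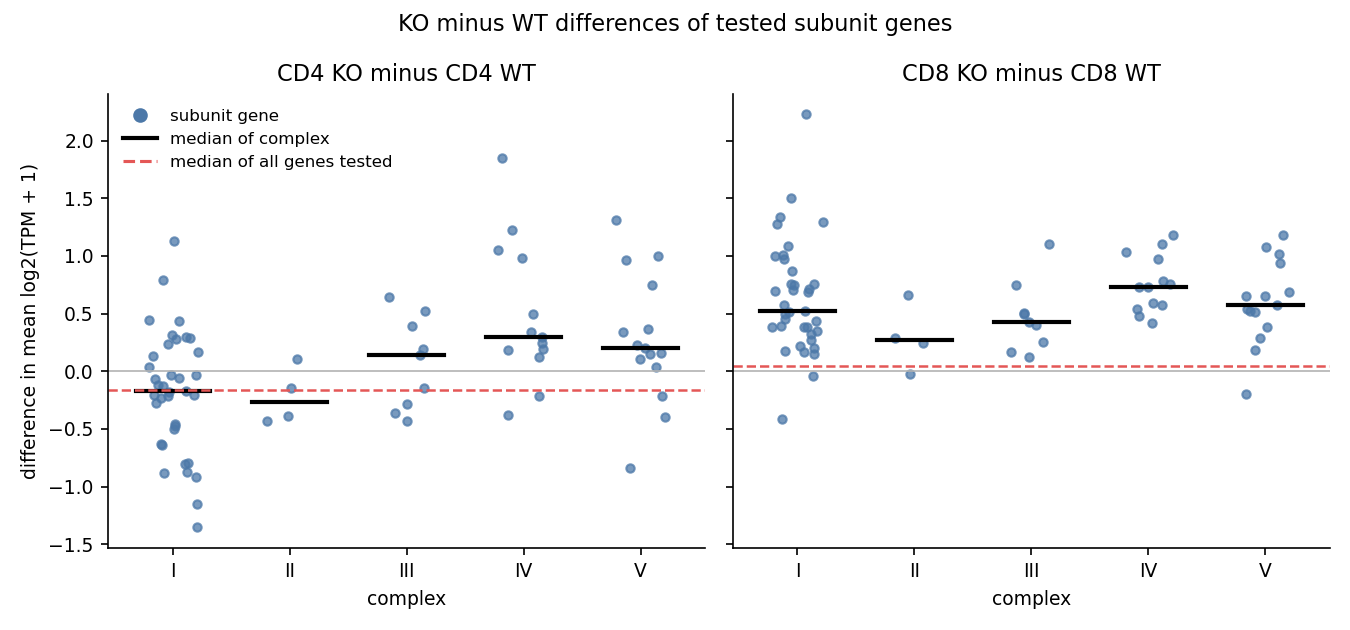
Difference of KO and WT means of log2(TPM + 1) (y axis) for each tested subunit gene, by complex (x axis), in CD4 (left) and CD8 (right); black bars are medians per complex and the dashed red line is the median of all genes tested. In CD4 the medians run from -0.27 in complex II to 0.30 in complex IV, and in CD8 they all lie above 0, from 0.27 to 0.73.

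Within ATP synthase, the alpha and beta subunits and the gamma subunit of the catalytic head lay in opposite directions in CD4. Atp5b (chr10:128083307-128090388, mm10) was at 1045 and 1564 TPM in CD4 WT and 2583 and 2530.0 TPM in CD4 KO. The KO libraries were both higher, with a log2 difference of 1.0 ± 0.30 (SE, n = 2 per group) and an adjusted p of 0.148 by limma. Atp5a1 (chr18:77773768-77782868) was at 346 and 427 TPM in WT and 699.6 and 599.7 TPM in KO. Its log2 difference was 0.75 ± 0.30 (limma adjusted p 0.241), again with no overlap. Atp5c1 (chr2:10056031-10080510) was at 420.4 and 447 TPM in WT and 211 and 278 TPM in KO, both KO libraries being lower, with a log2 difference of -0.84 ± 0.32 (limma adjusted p 0.229). None of these passed the test with all libraries as deposited. All 3 passed with library weights in the fit, as did 1260 of all 11786 genes tested and 6 of the 81 members. Among the 18 settings tried, none of the 3 passed with median-of-ratios scaling or with the span trend removed. The same held with a replicate block and with the CD4 groups fitted alone.

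The ratio within a library does not depend on its scaling. In CD4, Atp5b over Atp5c1 was 2.49 and 3.50 (WT) against 12.2 and 9.10 (KO). In CD8 it was 2.54 and 3.44 (WT) against 4.41 and 5.35 (KO). Atp5a1 over Atp5c1 was 0.823 and 0.954 in CD4 WT against 3.32 and 2.16 in CD4 KO, and for CD8 0.719 and 0.798 (WT) against 1.27 and 1.46 (KO). For both ratios, chosen after the values were seen, every KO library lay above every WT library of either cell type, CD8 WT replicate 2 included. Atp5b over Atp5a1 stayed between 3.02 and 4.31 in all 8 libraries. Atp5c1 spans 24.48 kb of genome, Atp5b 7.08 kb and Atp5a1 9.10 kb. Over all genes the KO differences ran with span, as described below, and the part of span in these ratios was not tested.

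Among the other ATP synthase genes, Atp5d, the delta subunit of the head, was at 6.43 and 9.24 TPM in CD4 WT and 20.8 and 12.4 TPM in CD4 KO (log2 difference 0.97 ± 0.55, limma adjusted p 0.411). The c ring genes together were at 317 and 313 TPM in CD4 WT and 354 and 299 TPM in CD4 KO, with overlapping groups. Atp5k, a small membrane subunit, was among the 3 highest log2 differences (1.32 ± 0.98), on 4.21 and 1.2 TPM in WT and 4.11 and 12.9 TPM in KO, and overlapped. Atpif1, the ATP synthase inhibitor whose symbol lies outside the membership rule, was at 6.70 and 2.27 TPM in CD4 WT and 18.1 and 14.0 TPM in CD4 KO, a log2 difference of 1.76 ± 0.58 (limma adjusted p 0.178) with no overlap.

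Complex I held the lowest differences in CD4. Ndufs4 (chr13:114287795-114388094), an accessory subunit near the NADH-oxidising module, was at 51.5 and 55.5 TPM in CD4 WT and 24 and 23.2 TPM in CD4 KO. Both KO libraries were below both WT libraries by far more than the replicates differed, with a log2 difference of -1.15 ± 0.36 (limma adjusted p 0.157, from 0.0263 to 0.748 over the settings). In CD8 it was at 46.7 and 30.7 TPM in WT and 26.4 and 30.1 TPM in KO, the single member lower without overlap in CD8 KO (19.1% of all genes were), and its log2 difference there was -0.41 ± 0.36. Ndufs4 over Ndufv1, the flavoprotein that binds NADH, was 0.455 and 0.429 in CD4 WT against 0.145 and 0.144 in CD4 KO. For CD8 it was 0.343 and 0.316 (WT) against 0.171 and 0.186 (KO), so all KO libraries lay below all WT libraries. Ndufv1 was chosen as the partner after the values were seen and was itself at 113 and 129.5 TPM in CD4 WT and 166 and 162 TPM in CD4 KO. Ndufs4 spans 100.3 kb of genome. All tested genes of 100 kb or more had a median log2 difference of -1.12 in CD4 and -0.84 in CD8. The part of span in this ratio was not tested.

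Ndufc1 (chr3:51405479-51408955), a small membrane subunit, was at 59.6 and 36.3 TPM in CD4 WT and 13 and 23.7 TPM in CD4 KO (log2 difference -1.35 ± 0.48, limma adjusted p 0.203). Ndufa12 (chr10:94199009-94220948) was at 76.9 and 53.5 TPM in WT and 40.1 and 28.0 TPM in KO (-0.92 ± 0.37). Ndufs8 (chr19:3908870-3912717), an iron-sulfur subunit of the arm that carries electrons to ubiquinone, was at 121 and 108 TPM in WT and 65.4 and 58.5 TPM in KO (-0.87 ± 0.34). In each of these 3 genes the groups did not overlap. Ndufa9 was at 226 and 206 TPM in WT and 139.9 and 97.4 TPM in KO, and Ndufab1, which is also the acyl carrier protein of mitochondrial fatty acid synthesis, at 48.2 and 44.8 TPM in WT and 30.3 and 23.0 TPM in KO, both lower without overlap. Not all of complex I lay lower: Ndufa13 was at 19.0 and 27.1 TPM in WT and 35.9 and 44.5 TPM in KO, wholly higher. Ndufs3, the most abundant subunit, was at 442 and 332 TPM in WT and 370.2 and 268 TPM in KO, with a lower KO mean and overlapping groups.

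In complexes II to IV, single subunits lay on both sides of 0 in CD4. Sdha was at 664 and 617 TPM in WT and 561 and 599 TPM in KO, and Sdhc at 90.3 and 101 TPM in WT and 72.3 and 68.6 TPM in KO, both slightly lower without overlap, while Sdhb and Sdhd overlapped. Within complex III, Cyc1 was at 323 and 359.6 TPM in WT and 496 and 484 TPM in KO, wholly higher, and the core proteins Uqcrc1 (1233 and 955 TPM in WT, 883 and 902 TPM in KO) and Uqcrc2 (99.0 and 118 TPM in WT, 82.4 and 77.1 TPM in KO) were wholly lower. In complex IV, Cox4i1 was at 154 and 156 TPM in WT and 249 and 192 TPM in KO, and Cox7c at 2.74 and 3.30 TPM in WT and 11.0 and 4.79 TPM in KO (log2 difference 1.06 ± 0.62), both wholly higher. Cox6b2, the testis form beside Cox6b1, was at 0 and 0.594 TPM in WT and 2.57 and 4.77 TPM in KO (1.85 ± 0.72, limma adjusted p 0.238), on low values. The catalytic core of complex IV is mitochondrially encoded and was not measured.

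**Figure D3:**
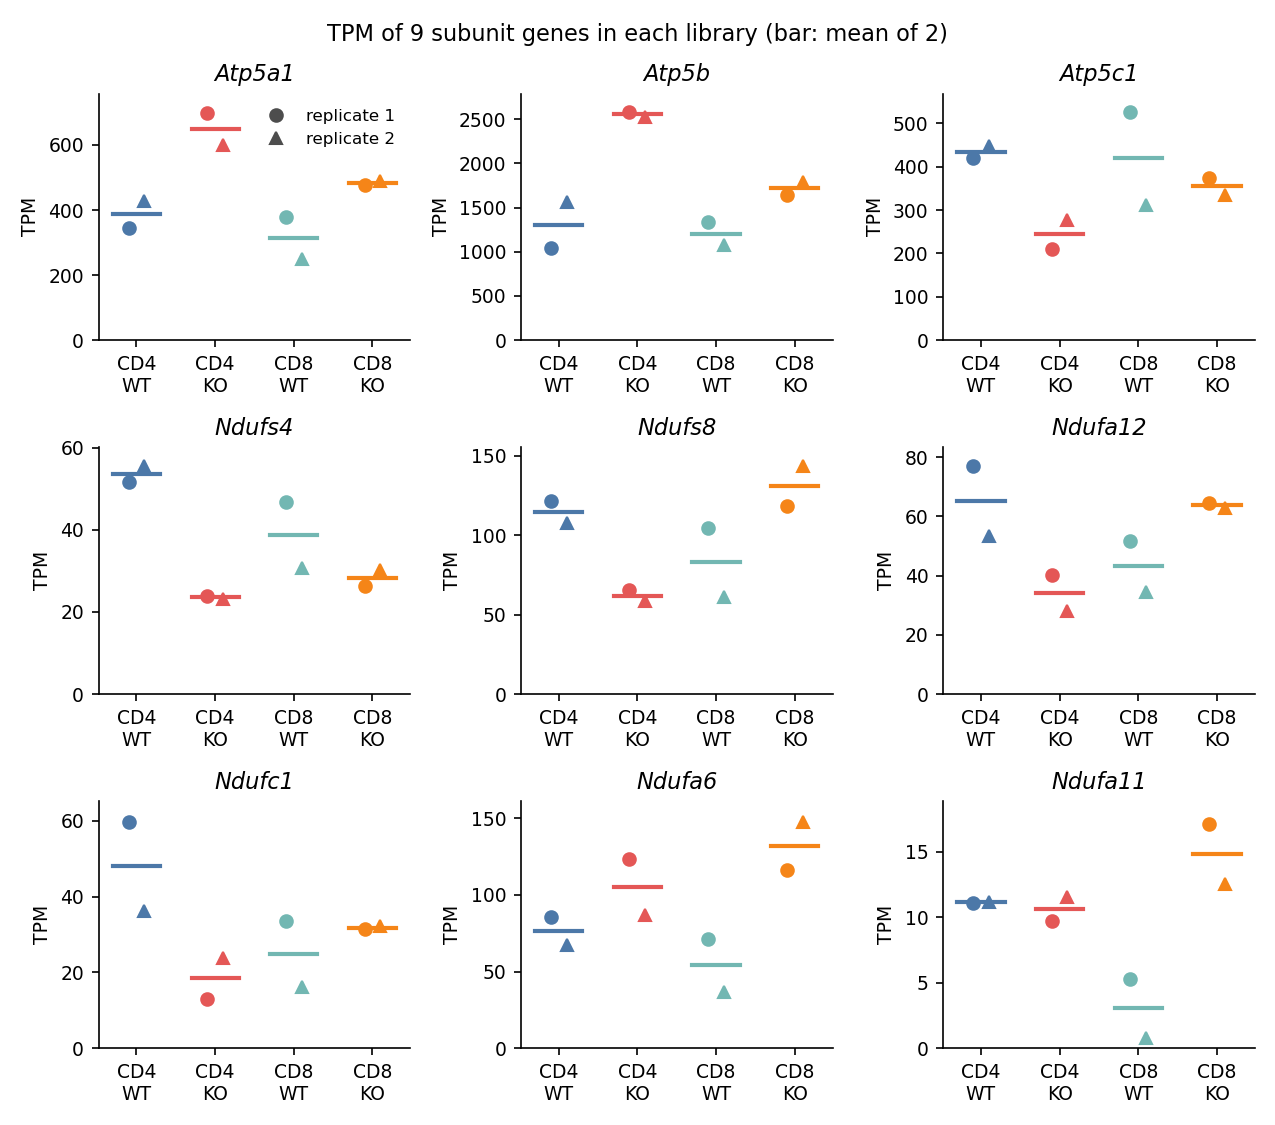
TPM (y axes, linear from 0) of 9 subunit genes in the 4 groups; circles and triangles are replicates 1 and 2 and bars are their means. Atp5a1 and Atp5b are higher and Atp5c1, Ndufs4, Ndufs8, Ndufa12 and Ndufc1 lower in both CD4 KO libraries than in both CD4 WT libraries, and Ndufa6 and Ndufa11 are higher in CD8 KO.

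In CD8 cells most members were higher in KO than in WT, and the size of this depended on CD8 WT replicate 2. Summed member TPM had a KO over WT ratio of 1.36, and of 1.08 against CD8 WT replicate 1 alone. By complex the ratios were 1.38, 1.15, 1.31, 1.43 and 1.38 for complexes I to V, and 1.08, 0.872, 1.04, 1.10 and 1.19 without that library. Of 81 members 75 had a log2 difference above 0 (52.4% of all genes), with a median of 0.54 against 0.05 for all genes. Without CD8 WT replicate 2 the count was 59 (45.1% of all genes) and the median 0.32 against -0.07, and 71 of the 81 differences were smaller. By complex the medians without it were 0.30, -0.22, 0.14, 0.64 and 0.36, so that complex II changed direction. Median-of-ratios scaling gave 75 as well (47.6% of all genes) and a median of 0.44.

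No member passed limma's test in CD8 KO against CD8 WT, where 35 genes (0.297%) did, and 12 members had an unadjusted p under 0.05, against 15.1% of all genes. All 12 were higher (7.08% of all genes) and 0 lower (8.01%). Both KO libraries lay above both WT libraries for 52 members (23.0% of all genes), including 12 of 13 tested complex IV genes, 10 of 15 of complex V and 22 of 37 of complex I. Against CD8 WT replicate 1 alone, 54 were wholly higher (32.4% of all genes) and 16 wholly lower (41.0%), and the complex IV count was 12 of 13. Such counts cannot fall when a WT library is left out, so they are no check on that library. Replicate 1 of CD8 WT was higher than replicate 2 for 71 of 81 members. These are by construction the 71 whose difference was smaller without replicate 2. The median log2 difference between these 2 libraries of the same group was 0.56 (0.36 over all genes). The median absolute difference between replicates was 0.59 over the members in CD8 WT and 0.26 to 0.33 in the other groups.

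**Figure D4:**
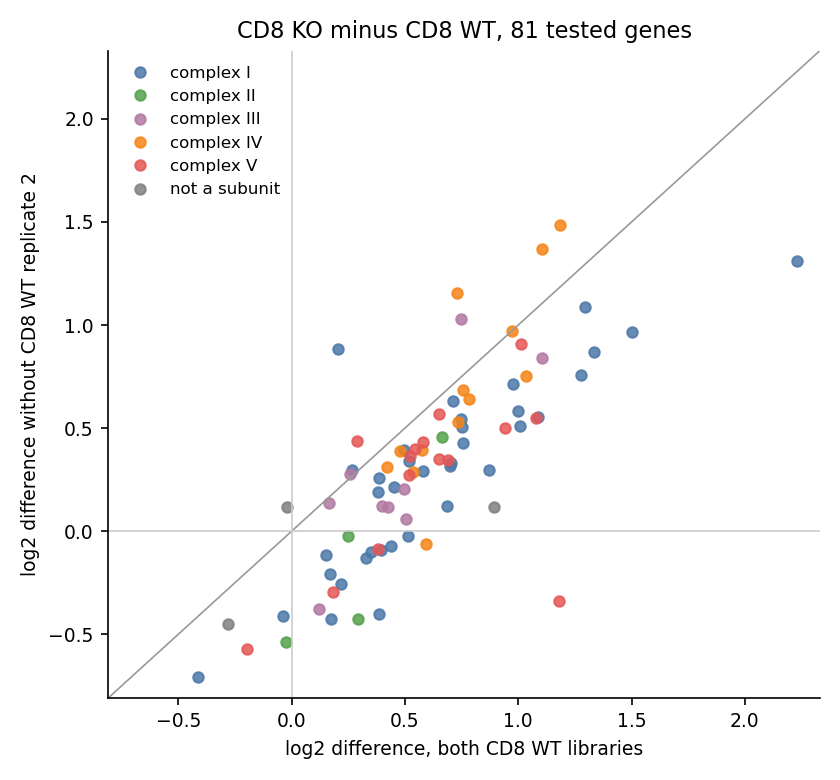
CD8 KO minus CD8 WT log2 difference of each of 81 tested members with both CD8 WT libraries (x axis) and without CD8 WT replicate 2 (y axis), coloured by complex; the diagonal marks equal values. Of the 81 genes, 71 lie below the diagonal, 75 are above 0 on the x axis and 59 above 0 on the y axis.

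The highest CD8 differences were in accessory subunits of complex I. Ndufa11 (chr17:56717762-56724248) was at 5.30 and 0.766 TPM in CD8 WT and 17.1 and 12.5 TPM in CD8 KO (log2 difference 2.23 ± 0.63, limma adjusted p 0.183). Its level in CD8 WT replicate 2 was the lowest of the 8 libraries, and even replicate 1 lay below both CD4 groups, which ran from 9.73 to 11.5 TPM. Ndufa7 was at 16.0 and 7.12 TPM in WT and 30.6 and 33.9 TPM in KO (1.5 ± 0.45, limma adjusted p 0.2). Ndufa6 was at 71.2 and 36.8 TPM in WT and 116 and 148 TPM in KO (1.34 ± 0.39, limma adjusted p 0.187). All 3 were higher in KO without overlap. In complex IV, Cox8a was at 106 and 71.7 TPM in WT and 157 and 206 TPM in KO, and Cox6b1 at 6.59 and 10.5 TPM in WT and 18.4 and 22.4 TPM in KO. Cox4i1 was at 168 and 118 TPM in WT and 169.6 and 248 TPM in KO, so that CD8 KO replicate 1 and CD8 WT replicate 1 nearly coincided. Sdha was at 689 and 255 TPM in WT and 565 and 467 TPM in KO and overlapped, and Cox7a2l at 1825 and 732 TPM in WT and 1789 and 1703 TPM in KO overlapped as well. The 3 lowest differences were those of Ndufs4, Cox4nb (8.81 and 6.73 TPM in WT, 7.93 and 4.77 TPM in KO) and Atp5c1 (526 and 312 TPM in WT, 374 and 335 TPM in KO).

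The CD4 and CD8 effects of the knockout were compared by their difference in the same fit. No member and no gene passed this test (0% of 11786), 9 members had an unadjusted p under 0.05 against 6.95% of all genes, with 9 more positive in CD8 (3.86% of all genes) and 0 less (3.09%). The lowest p was that of Ndufs8, at 105 and 61.2 TPM in CD8 WT and 119 and 144 TPM in CD8 KO, opposite to CD4 (difference of effects 1.57 ± 0.48, limma adjusted p 0.701). Ndufb7 followed, with 178 and 120.4 TPM in CD4 WT against 95.2 and 92.1 TPM in CD4 KO, and for CD8 108 and 96.9 TPM (WT) against 147 and 193 TPM (KO); its difference of effects was 1.35 ± 0.44. Ndufa12 came next (1.49 ± 0.52). The median difference of effects was 0.53 over members and 0.24 over all genes, and 0.80 in complex I. Without CD8 WT replicate 2 these were 0.27, 0.08 and 0.43.

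Groups without overlap in both cell types gave 9 members lower in CD4 KO and higher in CD8 KO (3.84% of all genes): Ndufa8, Ndufa12, Ndufb3, Ndufb4, Ndufb7, Ndufs8, Uqcrc1, Uqcrc2 and Cox6b1. Leaving out CD8 WT replicate 2 can keep or raise such a count but cannot lower it. The same 9 therefore had to remain, and no other member joined them (5.29% of all genes). Higher in both were 16 members (8.93% of all genes), among them Atp5a1, Atp5b, Atp5d, Atp5e and Atp5h of ATP synthase and Cox4i1, Cox6b2, Cox6c, Cox7b and Cox7c of complex IV. Lower in both was Ndufs4 (11.1% of all genes), and no member was higher in CD4 KO and lower in CD8 KO (1.91%). Without CD8 WT replicate 2 the last 2 counts were 8 (23.6%), Atp5c1 among them, and 3 (3.67%). Complex V over complex I was 0.972 and 1.32 in CD4 WT against 1.86 and 1.99 in CD4 KO, and for CD8 1.14 and 1.46 (WT) against 1.29 and 1.23 (KO), so it differed without overlap in CD4 and overlapped in CD8. Complex IV over complex I was 0.817 and 0.870 in CD4 WT and 1.15 and 1.14 in CD4 KO, and again overlapped in CD8. Ndufs8 over Ndufv1 was 1.07 and 0.832 in CD4 WT against 0.395 and 0.362 in CD4 KO, while the CD8 values of 0.769 and 0.630 (WT) and 0.768 and 0.889 (KO) overlapped.

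**Figure D5:**
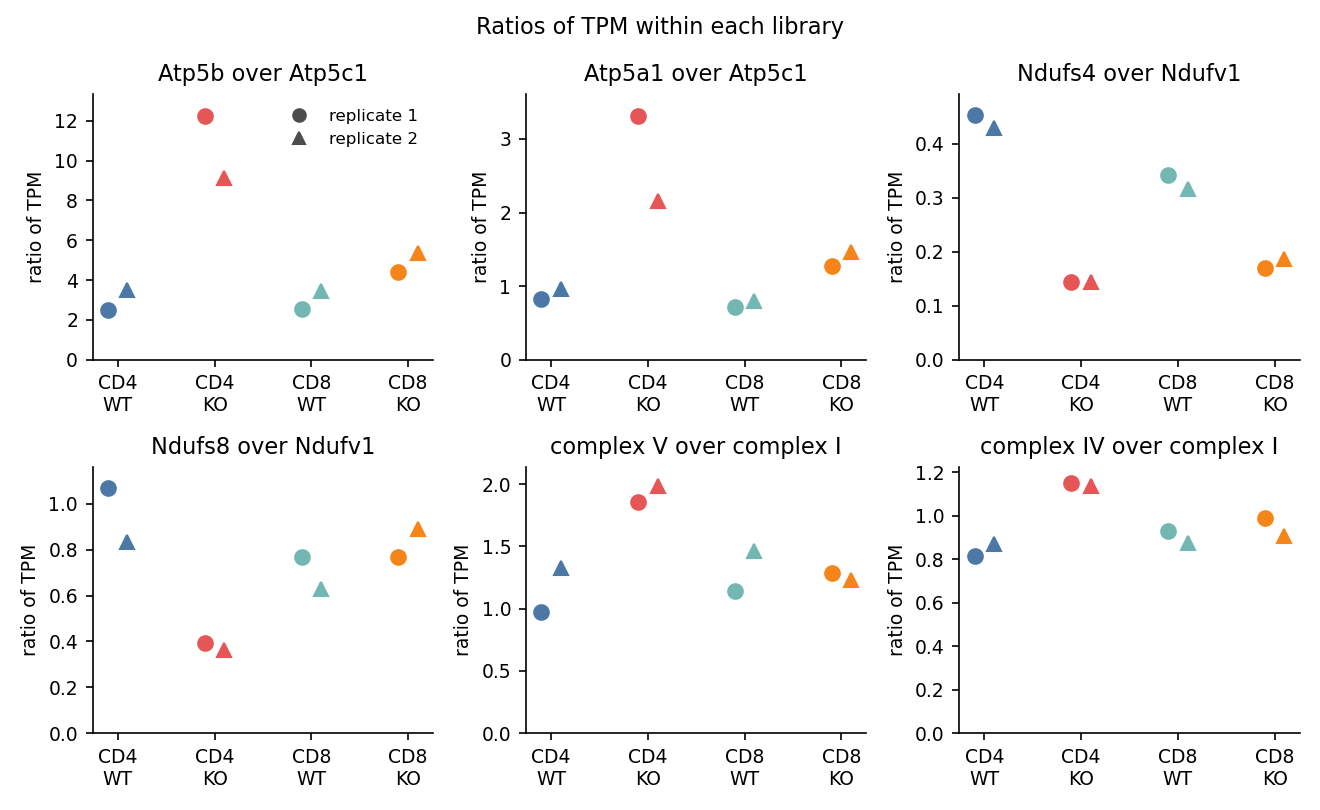
Ratios of TPM within each library (y axes, linear from 0) in the 4 groups; circles and triangles are replicates 1 and 2. Atp5b over Atp5c1 and Atp5a1 over Atp5c1 are higher, and Ndufs4 over Ndufv1 lower, in all 4 KO libraries than in all 4 WT libraries, while Ndufs8 over Ndufv1, complex V over complex I and complex IV over complex I separate KO from WT in CD4 and not in CD8.

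Between the wild-type lineages, members were mostly lower in CD8 than in CD4, and this too rested on CD8 WT replicate 2. No member passed limma's test, where 23 genes (0.195%) did, and 5 members had an unadjusted p under 0.05 against 8.67% of all genes, 5 of them lower (5.39%) and 0 higher (3.28%). Libraries of the 2 groups did not overlap for 27 members that were lower (24.8% of all genes) and 3 that were higher (9.53%). Of the members 9 of 81 were above 0 (33.0% of all genes), with a median of -0.33 against -0.26. Without CD8 WT replicate 2 there were 35 above 0 (45.2%) and the median was -0.09 against -0.06, and with median-of-ratios scaling 34 (51.5%) and -0.04 against 0.02. The lowest differences were Ndufa11 (-1.86 ± 0.63), Ndufb4 (22 and 23.7 TPM in CD4 WT, 15.0 and 6.78 TPM in CD8 WT) and Atp5g1 (106 and 80.8 TPM in CD4 WT, 46.4 and 39.8 TPM in CD8 WT). In all 3 both CD8 WT libraries were below both CD4 WT libraries. The highest were Cox7b (0.33 ± 0.47), Uqcrh (0.31 ± 0.49) and Ndufa13 (0.23 ± 0.37), each smaller than its standard error. Of the marker genes 3 were called by limma between these groups. Nkg7, a cytotoxic granule gene, was at 169 and 107 TPM in CD8 WT and 6.36 and 2.88 TPM in CD4 WT (limma adjusted p 0.00563). The globin gene Hba-a2 was at 1813 and 805 TPM in CD8 WT and 12.1 and 88.9 TPM in CD4 WT (limma adjusted p 0.0407), and the B cell receptor gene Cd79b was lower in CD8 WT, at 218 and 145 TPM against 1116 and 1127 TPM (limma adjusted p 0.0057). Hba-a2 was thus higher in replicate 1 of CD8 WT, while 11 of 13 erythroid markers were higher in replicate 2.

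The genomic span of a gene ran with its KO effect over all genes. The median log2 difference in CD4 was 0.23 for genes under 5 kb, then 0.11, 0.04, -0.24 and -0.64, and -1.12 for genes of 100 kb or more, and in CD8 it was 0.31 and -0.84 at those ends. Members are compact, with a median span of 7.08 kb against 18.97 kb. In CD4 the 26 members under 5 kb had a median of 0.19 and the 30 of 5 to 10 kb 0.16, the 14 of 10 to 20 kb -0.24 and the 9 of 20 to 50 kb -0.43, of which 0 were above 0. Those 9 include Atp5c1, whose span is 24.5 kb, and Ndufs4 spans 100.3 kb, while Atp5b spans 7.08 kb, Ndufs8 3.85 kb and Ndufc1 3.48 kb. With each library's trend against span removed, the member median was -0.06 in CD4 (0.02 for all genes) and 0.34 in CD8 (-0.01 for all genes). There were then 38 of 81 members above 0 in CD4 (51.0% of all genes) and 63 in CD8 (49.7%), and complex I remained below complexes IV and V in CD4, with medians of -0.26, 0.14 and 0.11.

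Lists of other mitochondrial genes, none of them members, held 2 called genes. In CD8 the counts are given first with both WT libraries and then without CD8 WT replicate 2, and the shares of all genes above 0 were 41.7% in CD4 and, in CD8, 52.4% and 45.1%. Of 52 tested assembly factors of the respiratory complexes 19 were above 0 in CD4 and 31, then 14, in CD8, where their median turned from 0.20 to -0.26. Of 27 genes of protein import 10 were above 0 in CD4 and 23, then 15, in CD8. For 19 genes of mitochondrial DNA upkeep the counts were 10 in CD4 and 11, then 5, in CD8, and the CD8 median turned from 0.24 to -0.21. For 18 genes of electron carriers (cytochrome c and electron transfer flavoproteins) and coenzyme Q synthesis they were 9 in CD4 and 6, then 8, in CD8. For 7 nucleotide and phosphate carriers and pores they were 3 in CD4 and 7, then 5, in CD8. For 16 regulators of mitochondrial biogenesis they were 7 in CD4 and 13, then 14, in CD8. A mixed list of 9 genes, small subunits and associated proteins with symbols outside the rule, Atpif1 among them, had 7 above 0 in CD4 and 8 in CD8 either way. With all 8 libraries, limma called 0 genes of these 7 lists in either cell type. In 19 enzymes of the tricarboxylic acid cycle 4 were above 0 in CD4 and 10, then 7, in CD8, and 1 fell in CD4. It was Suclg2, a subunit of GTP-forming succinyl-CoA synthetase, at 57.0 and 79.2 TPM in CD4 WT and 6.10 and 12.3 TPM in CD4 KO (log2 difference -2.81 ± 0.46, limma adjusted p 0.0384). In 21 genes of cristae shape and mitochondrial fusion or fission 6 were above 0 in CD4 and 12, then 10, in CD8, and 1 fell in CD4, namely Chchd3, a subunit of the cristae junction complex MICOS, at 244 and 299 TPM in CD4 WT and 53.8 and 45.6 TPM in CD4 KO (-2.42 ± 0.42, limma adjusted p 0.0423). In CD8 both were also lower without overlap and not called. Both are long genes, of 244.7 and 267.9 kb, and with the span trend removed neither was called (log2 differences -1.43 and -0.99, adjusted p 0.189 and 0.323 by limma). Each passed in 8 of 17 alternatives, with adjusted p from 0.00247 to 0.444 for Suclg2 and 0.00145 to 0.433 for Chchd3, and neither passed when any CD4 or CD8 KO library or any CD4 WT library was left out.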

How the data were processed

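The authors aligned reads with HISAT to mm10, per the submitters' processing notes. Neither its version nor the quantification program is named there. The deposited tables hold TPM, which the authors scaled to 1000000 per library, FPKM and read coverage per gene, per the file headers, and no read counts. Coverage over FPKM gave the depth. TPM was summed per symbol. The 11786 genes whose mean over the 8 libraries reached 1 TPM were tested with limma 3.58.1 (R 4.3.3) on log2(TPM + 1), with an intensity trend and 1 mean per group, residual degrees of freedom 4 (prior 5.68), and Benjamini-Hochberg adjustment at 0.05 over all of them; the script was tested on simulated data. The planned design named this test for tables without counts. Differences of log2(TPM + 1) understate changes of low genes. Transcript lengths and pseudogene matches came from GENCODE M21.

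Named genes were the 3 most abundant per complex, the 3 highest and 3 lowest differences per comparison with at least 5 TPM in the higher group, the 3 lowest p for the difference of effects, called genes, isoforms, the succinate dehydrogenase subunits and Trappc1; others named were chosen after their values were seen. Not every gene that the rule gives is reported here. Members, lists and comparisons were chosen with earlier results of these data known. Of 276 genes in 14 lists, 228 matched by symbol, 39 by an older symbol and 9 were absent.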

Additional observations from a re-analysis of the deposited data

How the results depend on the processing

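Genes called in CD4 numbered 84, and 0 with no filter on low values, 141 with median-of-ratios scaling, 1260 with library weights, 25 with the span trend removed, 243 with the CD4 groups fitted alone and 0 to 768 when a library was left out, both highest values (758 and 768) without a CD8 WT library. In CD8 the 35 became 0 with no filter, with library weights and with the groups fitted alone, and 0 to 1842 when a library was left out, 1842 without CD8 WT replicate 1. Between the WT lineages the 23 became 1, 15 and 0 under those settings and 0 to 1629 when a library was left out, and the difference of effects gave 0 to 1148. Members called in CD4 were 6 with library weights (Atp5a1, Atp5b, Atp5c1, Ndufc1, Ndufs4 and Ndufs8) and 0 to 4 when a library was left out; the corresponding ranges were 0 to 16 in CD8, 0 to 12 between WT lineages and 0 to 8 for the difference of effects, the highest of each without CD8 WT replicate 1. In CD8, between WT lineages and for the difference of effects, calls over all genes were also highest without CD8 WT replicate 1. Whether members were called more often there than other genes was not tested. Member medians were 0.26 in CD4 with median-of-ratios scaling, and with a library left out ranged from 0.32 to 0.83 in CD8 and from -0.64 to -0.091 between WT lineages. The summed TPM ratio was 1.28 in CD4 with median-of-ratios scaling, and 1.08 to 1.82 in CD8 with a library left out. Keeping the 84 subunits only, a choice made after seeing the data, gave 0.07, 0.56 and -0.32 for the 3 medians.

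Replicate differences hardly correlated between groups (-0.036 to 0.094). This cannot show whether libraries of the same number share an origin, which the labels do not state. With the replicate number as a block, 29 genes and 0 members were called in CD4. Of 5872 values of single genes under the alternatives, 5596 kept their side of the threshold and moved by less than 1 standard error, 180 moved by more, 59 became called, 37 lost a call and none of the called ones changed sign. With a lone library left in a group, its spread is assumed to be that of the others. No counts are given, so counting error is not known for any gene.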
